A study of Mus musculus with 3 samples.

Results

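Neurexins, neuroligins and LRRTMs are adhesion proteins that meet across the synaptic cleft. Neurexins sit mainly on the presynaptic side and exist as long alpha and short beta forms, which arise from separate promoters of the same gene. Their postsynaptic ligands include the neuroligins and the leucine-rich repeat transmembrane proteins, or LRRTMs. Neuroligin-1 is best known from excitatory synapses, neuroligin-2 from inhibitory synapses, neuroligin-3 from both, and LRRTMs from excitatory synapses.

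The genes described are Nrxn2, Nrxn3, Nlgn1, Nlgn2, Nlgn3, Lrrtm1, Lrrtm2, Lrrtm3 and Lrrtm4, which were chosen by name. They make up 9 of 18130 protein-coding genes with a value and 60 of the 84660 transcripts listed. The samples are 3 libraries of total RNA from cortical neurons of wild-type mice, labelled as control in treatment, and they form 1 group. The labels used here give no age, strain, time in culture or origin of the cells, and nothing says that the libraries came from separate cultures. The libraries are called replicates 1, 2 and 3. With 1 group, levels were compared between genes inside each library, and the two-sided exact sign-flip permutation test over 3 libraries cannot give a p below 0.25.

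Levels are in TPM, a relative abundance scaled by transcript length. The level of a gene is that of the coding transcript on which most reads were counted. Errors are SD over the 3 libraries, a spread that may be technical. The p-values reflect only that a difference had the same sign in all 3 libraries, not the size of the spread. Coding transcripts with whole read numbers held 23949130, 21033438 and 20719749 reads in replicates 1, 2 and 3. Markers bore out the neuronal label, with all 6 pan-neuronal genes at or above 1 TPM, from Stmn2 at 687 ± 55.6 to Rbfox3 at 37.8 ± 1.46 TPM (n = 3). Excitatory genes, 5 of 5 at or above 1 TPM, ran from Camk2a at 130 ± 4.27 to Slc17a6 at 6.28 ± 1.23 TPM, and inhibitory genes, 5 of 5, from Sst at 106 ± 25.9 to Dlx1 at 6.93 ± 0.65 TPM. Glial genes were present too, with 6 of 6 astrocyte genes from Slc1a3 at 184 ± 19.1 to Gfap at 16.6 ± 1.75 TPM and 5 of 5 oligodendrocyte precursor genes from Olig1 at 34.4 ± 2.91 to Cspg4 at 1.49 ± 0.52 TPM. Microglial and endothelial genes reached 1 TPM in 1 of 5 and 0 of 3 cases, with Aif1 at 1.03 ± 0.43 TPM and with Tmem119 and Cldn5 listed at 0 in each library.

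Alternative inserts give these proteins much of their binding specificity, so inserts that set annotated coding transcripts apart are shown first. Splice segment 4 of neurexins is the best known of them. It bears on binding to neuroligins, LRRTMs and cerebellins. Capitals mark the insert and lower case the 12 coding bases on either side, read 5′ to 3′ from GENCODE release M21 transcripts on GRCm38.
Nrxn3 segment 4, chr12:90199147-90199236, plus strand: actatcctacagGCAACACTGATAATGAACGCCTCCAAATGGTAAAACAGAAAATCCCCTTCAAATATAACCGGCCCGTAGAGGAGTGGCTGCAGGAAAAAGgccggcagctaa
Nlgn1 insert A, chr3:25920178-25920237, minus strand: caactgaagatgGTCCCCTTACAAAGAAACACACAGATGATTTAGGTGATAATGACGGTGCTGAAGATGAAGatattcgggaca
Nlgn1 insert B, chr3:25439865-25439891, minus strand: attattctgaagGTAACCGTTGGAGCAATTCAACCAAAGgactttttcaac
Nlgn2 insert A, chr11:69830563-69830613, minus strand: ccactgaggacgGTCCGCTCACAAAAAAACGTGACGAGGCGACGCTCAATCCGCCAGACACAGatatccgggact
Nlgn3 upstream insert A, chrX:101303072-101303131, plus strand: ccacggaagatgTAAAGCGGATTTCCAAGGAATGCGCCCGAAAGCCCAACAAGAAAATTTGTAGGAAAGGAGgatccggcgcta
Nlgn3 downstream insert A, chrX:101307075-101307134, plus strand: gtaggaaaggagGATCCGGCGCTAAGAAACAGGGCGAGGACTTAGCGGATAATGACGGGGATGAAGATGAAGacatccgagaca

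Segment 4 of Nrxn3 is 90 bases long. Insert A of Nlgn1 and the downstream insert A of Nlgn3 are each 60 bases long and match at 43 positions, or 71.7%. The upstream insert A of Nlgn3 matches that of Nlgn1 at 16 of 60 positions, or 26.7%. Every insert shown has a length divisible by 3, so the reading frame continues with or without it. The deposited values did not resolve the Nlgn1 inserts or the upstream insert of Nlgn3. Nlgn1-201 carries inserts A and B, 87 bases that Nlgn1-202 lacks, and yet both transcripts held the same 3823, 3927 and 3541 reads in replicates 1, 2 and 3. Nlgn3-206 holds 76 bases more than Nlgn3-201, including the upstream insert A, and the read numbers of those transcripts differed by 0, 1 and 1 in replicates 1, 2 and 3. For the other inserts no transcripts that differ by the insert alone were compared, and no level of any insert is given.

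All 9 genes reached the minimum of 1 TPM, which 61.8% of all coding genes did. Their median was 13.9 TPM, against 2.91 TPM over all coding genes. The genes ran from Nrxn2 at 46.7 ± 2.06 TPM, above 94.8% of coding genes, to Lrrtm3 at 8.02 ± 0.30 TPM, above 68.5% of them (n = 3 each). The order was Nrxn2, Nlgn2, Lrrtm1, Nrxn3, Lrrtm2, Lrrtm4, Nlgn3, Nlgn1 and Lrrtm3. The values of Nrxn2, Nlgn2 and Lrrtm1 overlapped with those of no neighbour in this order, nor did those of Lrrtm2 and Lrrtm4 with each other. Nrxn3 and Lrrtm2 differed by 0.01 ± 0.22 log2 units, Lrrtm4 and Nlgn3 by 0.06 ± 0.08, and Nlgn1 and Lrrtm3 by 0.05 ± 0.11, all within the spread between libraries.

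**Figure D1:**
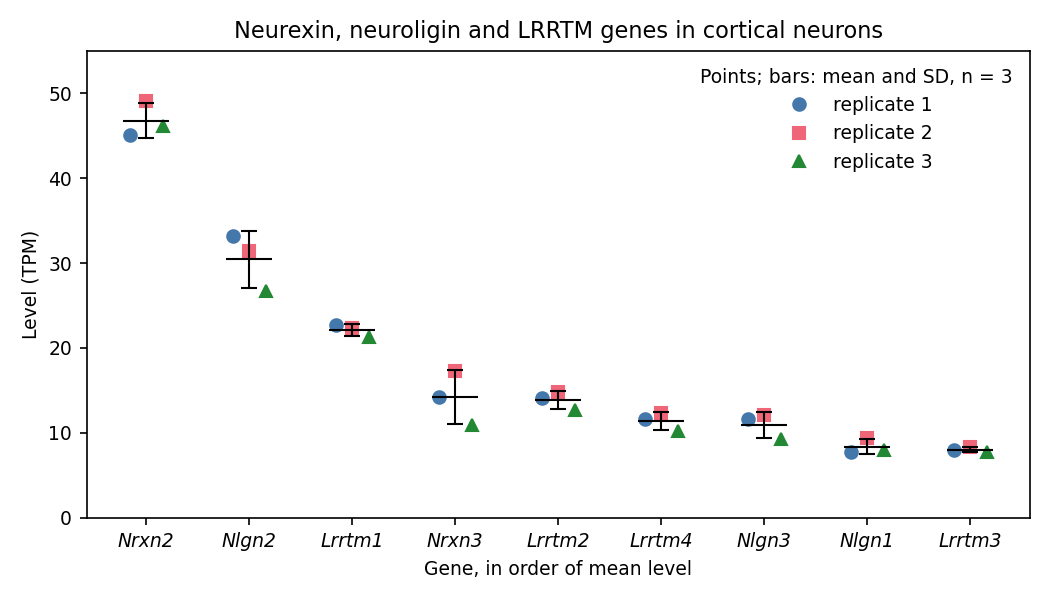
Level of each gene (TPM, vertical axis) in order of mean level, with 1 point per library and bars for mean and SD (n = 3). Nrxn2, Nlgn2 and Lrrtm1 stand apart at means of 46.7, 30.4 and 22.1 TPM, and the other 6 genes lie between 8.02 and 14.2 TPM.

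Among the presynaptic neurexins, Nrxn2 stood above Nrxn3. Nrxn2 (chromosome 19, 6418731 to 6544169 on GRCm38) had 45.1, 49.1 and 46.1 TPM in replicates 1, 2 and 3, from 15411, 14138 and 14038 reads. Nrxn3 (chromosome 12, 88722876 to 90334935) had 14.2, 17.3 and 11.0 TPM, from 5783, 5932 and 3972 reads. Every library had more Nrxn2 than Nrxn3, and the 2 sets of values did not overlap. Nrxn2 exceeded Nrxn3 by 1.74 ± 0.29 units on the log2(TPM + 0.1) scale, which is 3.40 ± 0.71 times its level (sign-flip test, exact p = 0.25 and adjusted p = 0.25 over 7 pairs, n = 3). Summed over all annotated transcripts, which count shared reads repeatedly, the difference was 2.37 log2 units. Nrxn3 had the largest relative spread of the 9 genes, with an SD of 22.4% of its mean. Counting error at its read number gives 1.38%.

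The 2 genes differ in genomic size, with Nrxn2 spanning 125 kb and Nrxn3 1612 kb. Nrxn3 is one of 3 of these genes over 200 kb, with Nlgn1 at 906 kb and Lrrtm4 at 791 kb. All 3 reached 1 TPM, as did 77.8% of the 987 coding genes over 200 kb.

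The alpha and beta forms share their downstream exons, so their annotated transcripts were counted partly on the same reads and cannot be added or set against each other as independent amounts. In Nrxn2, 4 alpha coding transcripts had means of 46.7 to 49.2 TPM. The beta transcript Nrxn2-202 had 52.4, 59.8 and 61.3 TPM in replicates 1, 2 and 3, with a mean of 57.8 ± 4.77 TPM. The other beta transcript, Nrxn2-203, has a different end and a mean of 30.6 ± 1.55 TPM. Of the 3503 bases of Nrxn2-202, 704 belong to no alpha transcript and 2799 are shared with them.

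Some short annotated fragments of Nrxn2 lie upstream of the beta start, and 1 lies in the downstream exons that both forms hold. Those upstream are called alpha-only here by position, and some also hold bases of no alpha or beta transcript. Alpha exons make up 694 of 818 bases of Nrxn2-206 and 623 of 739 of Nrxn2-215, but all 648 of Nrxn2-209. The effect of the remaining bases on the levels was not tested. The alpha-only fragments lay lower, with 4 of them at means of 27.5 to 45.5 TPM. The shared fragment Nrxn2-213 had 92.9, 107.5 and 119.9 TPM in replicates 1, 2 and 3, a mean of 106.8 ± 13.5 TPM. All 4 alpha-only fragments were lowest in replicate 3, while the shared fragment was highest there. Among them Nrxn2-209 had 30.0, 28.8 and 23.5 TPM, and Nrxn2-206 had 40.1, 38.7 and 30.6 TPM.

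The distance between the ends of Nrxn2 was set against other genes by taking, in each, the transcripts that lie furthest apart without overlapping, among those with 50 reads or more in every library and no retained intron. This comparison was chosen after the values were seen. In Nrxn2 the upstream transcript was Nrxn2-209, the lowest of the alpha-only fragments at a mean of 27.5 TPM. The downstream one was Nrxn2-213. Nrxn2-214 ends further upstream than Nrxn2-209, but it did not give whole read numbers and was not used. Its higher level, 48.7, 47.3 and 40.4 TPM in replicates 1, 2 and 3, would give a smaller ratio. With Nrxn2-209, the log2 ratio of the downstream to the upstream transcript was 1.63, 1.90 and 2.35 in replicates 1, 2 and 3. Over 1605 coding genes with such transcripts, the median was 0.61, 0.60 and 0.56. The ratio was highest in replicate 3 for 27.5% of these genes, and replicate 3 minus the mean of the others, 0.59 in Nrxn2, stood at percentile 98.5 of them. No cause was tested. In Nlgn3 the ratio was 1.25, 1.40 and 1.62, and in Nrxn3 it was 0.29, 0.67 and 0.41. Their shifts in replicate 3 stood at percentiles 89.4 and 52.5. Both Nlgn3 transcripts compared lie within the span of the overlapping gene model Gm21986, treated below, so their reads may not belong to Nlgn3 alone.

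Stretches near the end of Nrxn2 did not all move alike. The transcript used, Nrxn2-205, contains chr19:6531268-6531843, 576 coding bases that Nrxn2-201 lacks. Nrxn2-205 and Nrxn2-201 also differ by 32 other bases, and Nrxn2-205 held 655, 680 and 1311 more reads in replicates 1, 2 and 3. Replicate 3 had the fewest reads on coding transcripts with whole read numbers, slightly below replicate 2, but the most added reads here. Other bases went the opposite way. Nrxn2-205 also has 1162 bases that Nrxn2-204 lacks, among them those downstream of 6532278, where Nrxn2-204 ends. These added 2067, 2057 and 1615 reads in replicates 1, 2 and 3, or 1779, 1770 and 1390 per kb, the lowest in replicate 3. Nrxn2-201 was lowest in replicate 3, at 47.5, 51.4 and 46.0 TPM, whereas Nrxn2-205 was lowest in replicate 1.

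For Nrxn3 the alpha, beta and alpha-only classes were also listed, but no shared fragment was. Transcripts were classed as alpha if they start upstream of the beta start and run past it. The 5 such transcripts, coding or annotated for nonsense-mediated decay, had means of 10.9 to 14.2 TPM. Not all are full alpha forms, since Nrxn3-201 and Nrxn3-210 start far inside the gene, at 88953399 and 89193106. They hold 2851 and 2170 bases that only alpha transcripts have, against 5435 in Nrxn3-205. The beta transcripts Nrxn3-202 and Nrxn3-203 had 13.5 ± 3.16 and 10.8 ± 2.37 TPM. The 4 alpha-only fragments lay at 5.90 to 9.76 TPM. They too hold bases outside the alpha exons, which make up 503 of 646 bases of Nrxn3-207. All 13 annotated Nrxn3 transcripts were lowest in replicate 3, as were 8 of 15 for Nrxn2. Many of these transcripts overlap and share reads, so the counts are not of independent observations. No share over all transcripts is given beside them. At the level of genes, 41.0% of coding genes at 1 TPM or more were lowest in replicate 3.

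**Figure D2:**
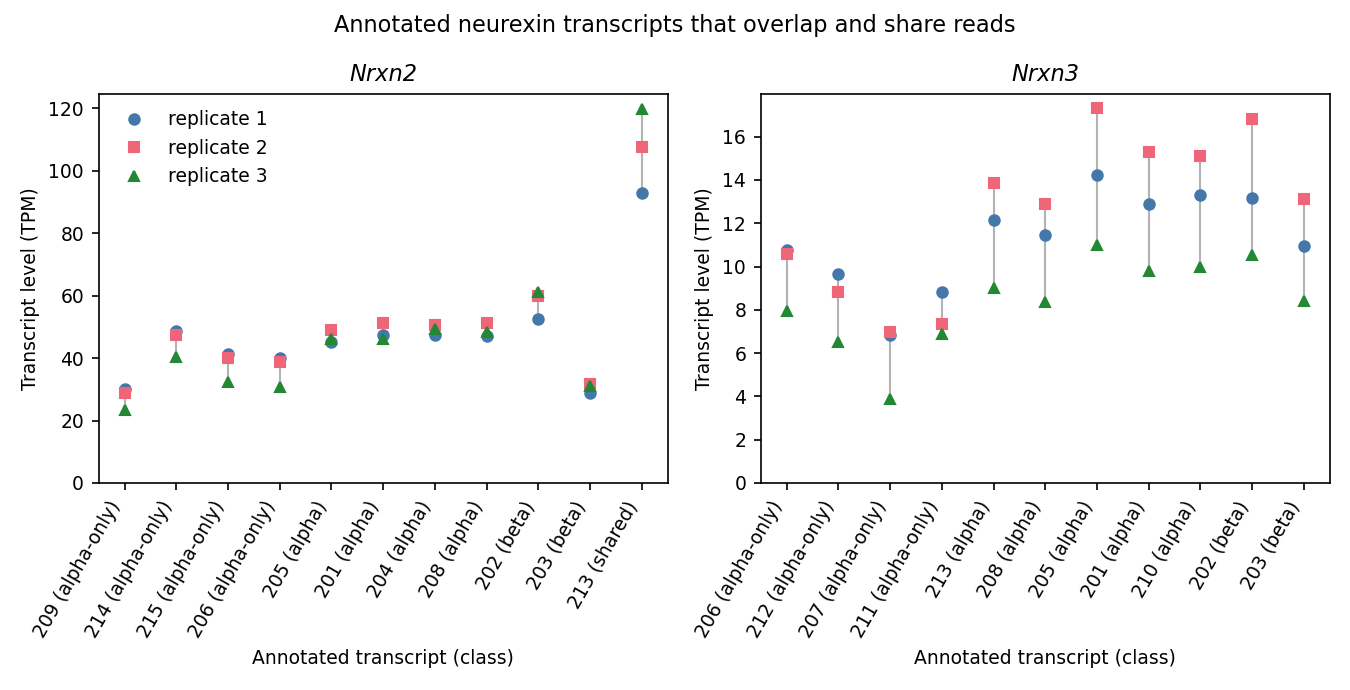
Level (TPM, vertical axis) of annotated Nrxn2 and Nrxn3 transcripts in 3 libraries, with 1 point per library; the panels have different scales, and transcripts that retain introns or mix classes are left out. In Nrxn2 the alpha-only fragments are lowest in replicate 3 and the shared fragment is highest there at 119.9 TPM, while in Nrxn3 each transcript shown is lowest in replicate 3.

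Among the postsynaptic neuroligins, Nlgn2 was highest. Nlgn2 (chromosome 11, 69823122 to 69837784), the neuroligin of inhibitory synapses, had 33.2, 31.5 and 26.7 TPM in replicates 1, 2 and 3, from 9469, 7573 and 6781 reads. Nlgn3 (chromosome X, 101299168 to 101325963), whose product is found at both kinds of synapse, had 11.6, 12.1 and 9.23 TPM, from 5085, 4459 and 3602 reads. Nlgn1 (chromosome 3, 25426215 to 26332460), the neuroligin of excitatory synapses, had 7.70, 9.36 and 7.99 TPM. Nlgn2 overlapped with neither of the others, and replicate 3 of Nlgn3 fell below replicate 2 of Nlgn1.

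Nlgn2 exceeded Nlgn3 by 1.47 ± 0.08 log2 units, or 2.78 ± 0.15 times its level (sign-flip test, exact p = 0.25, n = 3). Nlgn2 exceeded Nlgn1 by 1.85 ± 0.21 log2 units, or 3.67 ± 0.56 times its level (sign-flip test, exact p = 0.25, n = 3). With coding transcripts of highest TPM in place of those with most reads, the excess over Nlgn1 was 0.77 log2 units. Nlgn3 minus Nlgn1 was 0.39 ± 0.19 log2 units (sign-flip test, exact p = 0.25, n = 3), and it turned to -0.66 with the transcripts of highest TPM. Adjusted over the 7 pairs, p was 0.25 for each of these. The 3 coding transcripts of Nlgn2 lay close together, at means of 25.2 to 32.3 TPM, and those of Nlgn3 at 11.0 to 11.9 TPM. The SD was 11.1% of the mean for Nlgn2, 13.9% for Nlgn3 and 10.7% for Nlgn1, while counting error gives 1.12%, 1.51% and 1.48%.

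The level of Nlgn1 depends on which transcript stands for the gene, more than that of any other of the 9. Nlgn1-205 has the most reads, 4658, 4779 and 4307, spread over 11807 bases. It contains all of Nlgn1-201 and 7448 further bases, and these added 835, 852 and 766 reads. The further bases held 112, 114 and 103 reads per kb in replicates 1, 2 and 3, against 877, 901 and 812 reads per kb over Nlgn1-201. The 3 shorter coding transcripts had means of 17.8 to 19.0 TPM, against 8.35 ± 0.89 TPM for Nlgn1-205. On the shorter transcripts, Nlgn1 would lie between Nrxn3 and Lrrtm1.

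Nlgn3 carries a different uncertainty. Of its 8492 distinct 50-base words, 54.9% occur in no other gene's transcript. The rest are nearly all shared with Gm21986, with 3777 words in common. This is a processed transcript model on the same strand that spans 101295839 to 101321348, and it had 10.0, 9.44 and 8.19 TPM in replicates 1, 2 and 3. Reads in the overlap cannot be assigned to either gene. For the other 8 genes, no 50-base word occurred in a transcript of another gene.

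**Figure D3:**
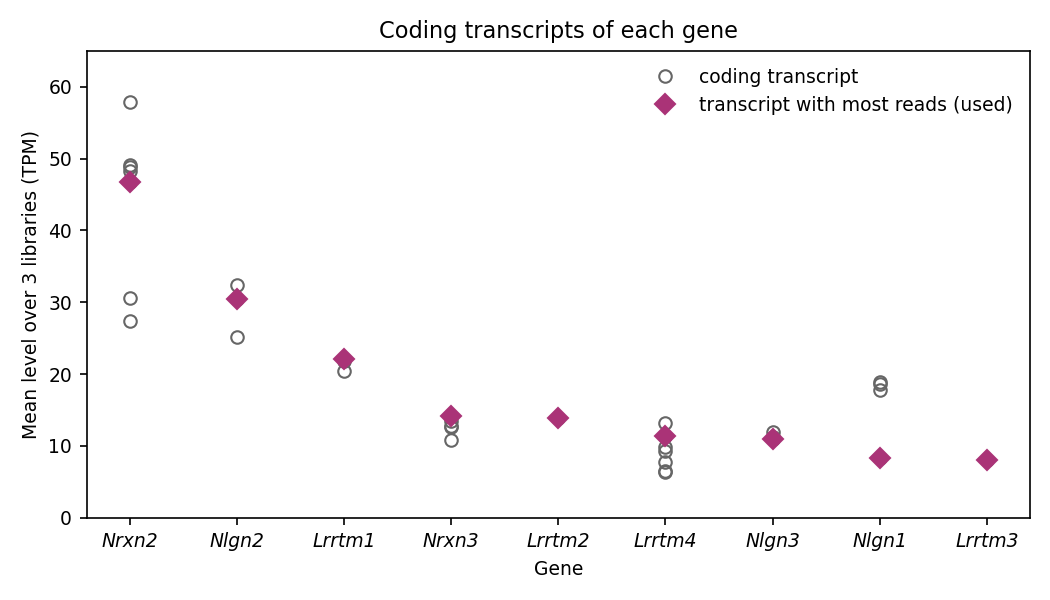
Mean level over 3 libraries (TPM, vertical axis) of every listed coding transcript of each gene, with the transcript that had the most reads as a filled diamond. The filled point of Nlgn1 lies at 8.35 TPM, below its 3 other coding transcripts at 17.8 to 19.0 TPM, and Nrxn2 and Lrrtm4 also spread by more than 2-fold.

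Among the LRRTM genes, Lrrtm1 was highest. LRRTM proteins are postsynaptic leucine-rich repeat ligands of neurexins, and LRRTM4 also binds heparan sulfate proteoglycans such as glypicans. Lrrtm1 (chromosome 6, 77242689 to 77257791) had 22.7, 22.4 and 21.3 TPM in replicates 1, 2 and 3, from 2928, 2435 and 2445 reads. Lrrtm2 (chromosome 18, 35209003 to 35215024) had 14.1, 14.8 and 12.7 TPM, from 4084, 3620 and 3297 reads. Lrrtm4 (chromosome 6, 80018877 to 80810143) had 11.6, 12.4 and 10.3 TPM, and Lrrtm3 (chromosome 10, 63928472 to 64090277) had 7.99, 8.33 and 7.73 TPM. The 4 genes kept the order Lrrtm1, Lrrtm2, Lrrtm4, Lrrtm3 in each library without overlap.

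Relative to Lrrtm1, Lrrtm2 lay at -0.67 ± 0.07, Lrrtm4 at -0.95 ± 0.10 and Lrrtm3 at -1.45 ± 0.04 log2 units (sign-flip test, exact p = 0.25 each, adjusted p = 0.25, n = 3). Summed over all annotated transcripts, the differences were -2.58 for Lrrtm2, -0.14 for Lrrtm4 and -0.98 for Lrrtm3, again in log2 units. Such sums count shared reads repeatedly and so depend on the number of transcripts listed. That number was 4 for Lrrtm1, 1 for Lrrtm2, 4 for Lrrtm3 and 8 for Lrrtm4. Lrrtm1 and Lrrtm3 were the steadiest of the 9 genes, with SDs of 3.40% and 3.74% of their means. Lrrtm4 had 8 coding transcripts at 6.35 to 13.2 TPM. The 3 that run on to the distant last exon had means of 11.4, 11.4 and 13.2 TPM, and the 5 that end earlier had 6.35 to 9.84 TPM.

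The genes Lrrtm1, Lrrtm2 and Lrrtm3 each lie inside 1 intron of an alpha-catenin gene, on the opposite strand. Alpha-catenins link cadherins to actin. The gene and its host stood in a different relation at each of the 3 loci. Lrrtm1 had 0.55 ± 0.03 times the level of its host Ctnna2, at 22.1 TPM for Lrrtm1 and 40.5 TPM for Ctnna2. Lrrtm2 had 1.16 ± 0.22 times the level of Ctnna1, with means of 13.9 TPM for Lrrtm2 and 12.2 TPM for Ctnna1. Lrrtm3 had 60.3, 45.7 and 39.4 times the level of Ctnna3 in replicates 1, 2 and 3, with means of 8.02 TPM for Lrrtm3 and 0.17 TPM for Ctnna3. No exonic base was shared between a gene and its host on the transcripts used. Whether reads from host introns were counted on the LRRTM exons was not tested, and the counting settings are not given.

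In replicate 3 most of the 9 genes were at their lowest. Nrxn3, Nlgn2, Nlgn3 and all 4 LRRTM genes, 7 of 9, were lowest there, and none was highest, while 31.4% of the coding genes at 1 TPM or more were highest there. Of 11205 coding genes at 1 TPM or more, 41.0% were lowest in replicate 3, and 32.4% after rescaling each library to its nuclear coding genes, with which the count stayed at 7 of 9. Nrxn2 and Nlgn1 were lowest in replicate 1. The summed pan-neuronal and inhibitory neuron markers were also at their lowest in replicate 3. All 6 pan-neuronal genes were lowest in replicate 3, where their summed level was 1588 TPM, with 1809 and 1857 TPM in replicates 1 and 2. The 5 inhibitory neuron genes summed to 186 TPM in replicate 3, with 272 and 282 TPM in replicates 1 and 2. Of these, 4 were lowest in replicate 3, among them Sst at 131, 108 and 79.7 TPM in replicates 1, 2 and 3, while Dlx1 was highest there at 7.15, 6.19 and 7.44 TPM.

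Glial markers went the other way. The 6 astrocyte genes summed to 505 TPM in replicate 3, with 410 and 438 TPM in replicates 1 and 2. The 5 oligodendrocyte precursor genes summed to 82.4 TPM in replicate 3, with 65.5 and 48.0 TPM in replicates 1 and 2. The 5 excitatory neuron genes summed to 310 TPM in replicate 3, with 319 and 316 TPM in replicates 1 and 2. Of these excitatory genes 3 were lowest in replicate 3, while Neurod6 was highest there at 80.6, 76.6 and 88.2 TPM in replicates 1, 2 and 3. The part of the cell type markers in the result was not tested, and fewer cells of a type cannot be told apart from less RNA per cell.

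The partners through which these proteins work were also measured. Of 75 genes in 7 lists from textbook knowledge, 73 reached 1 TPM, which 61.8% of coding genes did. Their median was 15.6 TPM, near the 13.9 TPM of the 9 genes and above the 2.91 TPM of all coding genes.

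Secreted neurexin ligands were the lowest of the lists that had more than 3 genes, with 8 of 9 at 1 TPM or more and a median of 5.09 TPM. Nxph1, a neurexophilin that binds alpha neurexins, led at 29.8 ± 5.31 TPM. Cbln1, a cerebellin that binds neurexins, had 10.5 ± 1.22 TPM, and Nxph4 was lowest at 0.17 ± 0.06 TPM. All 10 membrane partners reached 1 TPM. Clstn3, a calsyntenin, stood at 55.1 ± 5.26 TPM and the latrophilin gene Adgrl1 at 42.2 ± 5.90 TPM. Of the membrane partners 8 of 10 were lowest in replicate 3, and of the secreted ligands 4 of 8, beside 41.0% of coding genes.

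Inside the synapse, all 7 presynaptic and all 13 postsynaptic partner genes reached 1 TPM. On the presynaptic side, the adaptor gene Apba1 had 50.1 ± 4.81 TPM, and Lin7a was lowest at 9.14 ± 1.23 TPM. On the postsynaptic side, Dlg4, the scaffold PSD-95, had 151.5 ± 2.74 TPM and Dlg2 69.9 ± 6.83 TPM. Magi1 was lowest at 8.62 ± 0.70 TPM. Dlg4 stood above each of the 3 neuroligin genes in each library. Presynaptic partners were lowest in replicate 3 in 5 of 7 cases and postsynaptic scaffolds in 4 of 13, beside 41.0% of coding genes.

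Other synaptic organisers were all at 1 TPM or more, 30 of 30, with a median of 13.2 TPM. Sparcl1, a glial protein also called hevin, had 341 ± 40.1 TPM and the adhesion gene Cadm3 111 ± 5.47 TPM. The netrin-G gene Ntng1 was lowest at 1.20 ± 0.07 TPM. Of these organisers 18 of 30 were lowest in replicate 3, beside 41.0% of coding genes. Of the RNA-binding proteins known to regulate neurexin segment 4, Khdrbs3 had 58.3 ± 3.14 TPM, Khdrbs1 27.9 ± 1.60 TPM and Khdrbs2 4.49 ± 0.29 TPM. Of the proteases that cut neurexins or neuroligins, Adam10 had 23.2 ± 1.56 TPM and Mmp9 0.26 ± 0.06 TPM.

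**Figure D4:**
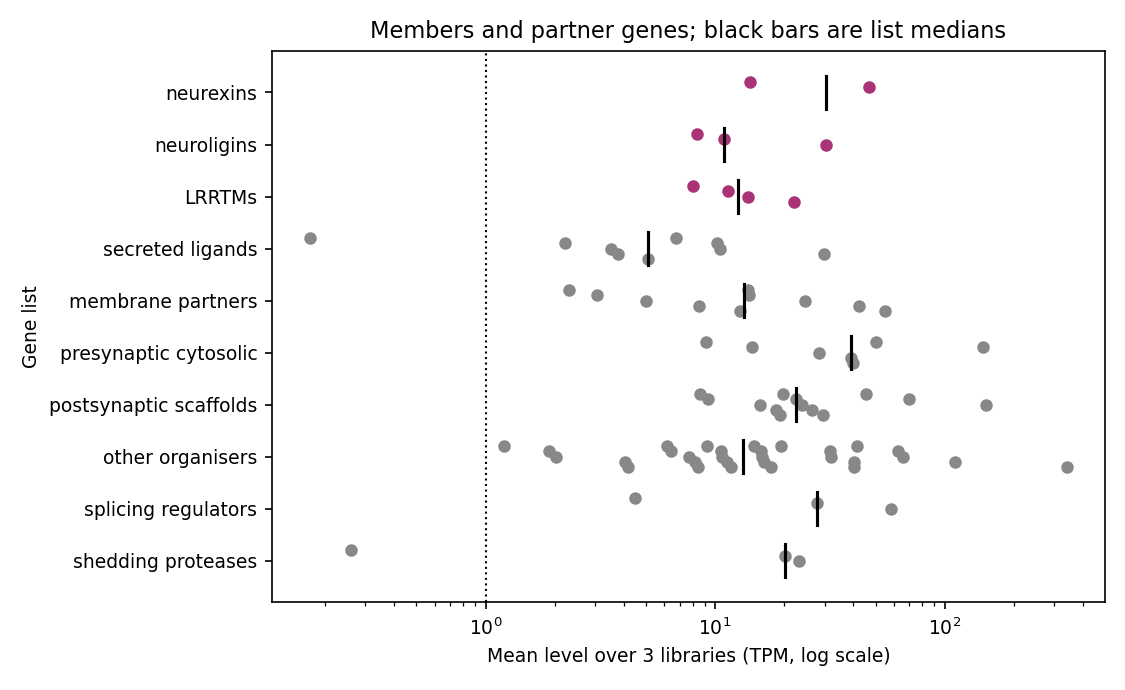
Mean level over 3 libraries (TPM, horizontal log axis) of the 9 genes and of 75 partner genes by list; each point is a gene, black bars are list medians and the dotted line marks 1 TPM. Of the partner genes, 73 lie at or above the line, and Nxph4 and Mmp9 lie below it.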

How the data were processed

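Total RNA of 3 control libraries was measured as 1 group. The authors deposited TPM, per the file headers, with 1 row for each of 84660 GENCODE M4 transcripts, and each column sums to the same total. Per the submitters' processing notes, reads were processed with build mm10 using STAR 2.5.3a, Subread 1.4.6, FastQC 0.11.2 and featureCounts; counting settings are not given in the sources used here. The members and gene lists were chosen with earlier results of these data known.

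Transcripts were matched by identifier to GENCODE M21 on GRCm38 (98.1% of rows). TPM times exonic length gave whole reads, within 0.01 of a read, for 99.9% of values on the 74454 transcripts with unchanged ends. For Lrrtm2, whose end moved by a few bases, the length inside the deposited ends was used. The gene value is the coding transcript with the highest mean TPM times exonic length. Differences between genes are in log2(TPM + 0.1), which understates those of low genes. They were tested inside each library by flipping signs in all ways (an exact permutation test, two-sided), adjusted by Benjamini-Hochberg over 7 pairs. The text names all 9 members, the 2 highest and the lowest genes of each partner list, lists of 3 in full, the host genes, and the highest and lowest gene of the cell type lists; a few genes that this rule names and 1 sequence are not reported here. Alternatives were pseudocounts of 1 and 0.01, other gene values, rescaling, other minimums and leaving out each replicate. The procedure was tested on simulated data in which reads were drawn for each transcript separately. That test did not cover reads shared between overlapping transcripts. Computation used pandas 2.3.3 and numpy 2.4.6 under Python 3.11.15, with figures from matplotlib 3.10.9.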

Additional observations from a re-analysis of the deposited data

How the results depend on the processing

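Of 56 alternative values of the 7 pair differences, 54 kept their sign. The exceptions were Nlgn3 minus Nlgn1, which was 0.39 and became -0.66 with the coding transcript of highest TPM and -0.28 with the sum over all transcripts, where shared reads are counted repeatedly. The low read density of the added bases of Nlgn1-205 sets its lower value. Leaving out 1 library at a time, Nlgn3 minus Nlgn1 ran from 0.29 to 0.48, Nlgn2 minus Nlgn1 from 1.73 to 1.92, Nlgn2 minus Nlgn3 from 1.44 to 1.51 and Nrxn2 minus Nrxn3 from 1.58 to 1.86. Relative to Lrrtm1, Lrrtm2 ran from -0.71 to -0.64, Lrrtm3 from -1.47 to -1.43 and Lrrtm4 from -1.0 to -0.90. With the sum over all transcripts, Nlgn2 minus Nlgn1 was 0.85, Nrxn2 minus Nrxn3 2.37, Lrrtm2 minus Lrrtm1 -2.58 and Lrrtm4 minus Lrrtm1 -0.14. All 9 genes stayed at or above 1 TPM under each alternative, and also at a minimum of 2 TPM. The count of genes lowest in replicate 3 was recomputed with settings chosen after seeing the data and stayed at 7. No paired analysis was possible because there is 1 group, so no replicate number is shared between groups; the differences between genes are themselves taken inside each library. Depth did not limit these levels, since each gene had at least 1376 reads per library.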
